A study of Mus musculus with 6 samples.

Results

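Lysosomal hydrolases are the enzymes that break down proteins, sugar chains, sulfated glycans and lipids inside the lysosome. The products of 2 activator genes help some of these enzymes reach lipid substrates. The set described here holds 40 named genes, of which 37 were measured by 68 probe sets that the platform annotation maps to a single gene, among 12393 genes measured in all. Ctso, Aga and Arsb were not analysed here. The genes were grouped by what their enzymes cut: 14 measured proteases, 12 glycosidases, 3 sulfatases, 6 lipid enzymes (lipases, thioesterases, a ceramidase and a sphingomyelinase) and the activators Psap and Gm2a.

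Expression was measured in 3 arrays from cultured mouse cells of a line named PPP3R1 that had been starved for 6 h and in 3 arrays of the control group. The gene of that name encodes the regulatory subunit of calcineurin, a calcium-dependent phosphatase, and the labels do not say how it was altered, if at all. The titles name the same line for the control arrays, and the series design adds that it was in normal medium. The protocol text instead names wild-type MEFs (mouse embryonic fibroblasts) as the control, and this conflict bears on every difference below. The sources used here do not state what the starvation medium lacked. The labels call the arrays biological replicates but do not say that the cultures were separate, so the p-values measure only the spread between these samples, which may be technical.

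As background, hydrolases are made in the endoplasmic reticulum, tagged with mannose 6-phosphate in the Golgi and carried to the lysosome by receptors for that tag. In many cells nutrient shortage inactivates the growth kinase mTORC1, and MiT/TFE transcription factors such as TFEB then enter the nucleus, a step that calcineurin can promote by removing phosphates. These factors bind E-box palindromes in the promoters of lysosomal genes. The single comparison of the design asks how transcript levels differed after starvation, and it was read here for the enzymes that such a response involves.

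Most hydrolase transcripts were lower in starved cells, by modest amounts. In limma's test, with adjusted p-values taken over all probe sets, 27 of the 37 genes fell and 3 rose, while 20.1% of all genes fell and 20.8% rose (40.8% in either direction). The largest fall was that of the beta-glucuronidase gene Gusb, to 41.5% of its control value on the linear scale, followed by the cathepsin genes Ctsa (53.9%), Ctsf (60.2%) and Ctsh (61.3%). The 3 genes that rose were the cathepsin C gene Ctsc (147% of control), the iduronate sulfatase gene Ids (129%) and the alpha-galactosidase gene Gla (115%). On the log2 scale of the deposited values, 11 of the 37 genes were lower by at least 0.5, against 6.63% of all genes. At limits of 0.25 and 1 the numbers were 25 and 1, for which the share over all genes is not given here. The median change (starved minus control) was -0.37, beside -0.01 over all genes. Of the 37 genes 36 had a mean over the arrays of at least 5. All genes include many dim ones, whose changes are harder to call. Values over all genes, here and below, were not matched for level. In a culture, fewer cells of a kind and less RNA per cell cannot be told apart.

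All 37 genes are drawn array by array in the heat map of deviations. The control and starved arrays did not overlap in 33 of them, 29 lower and 4 higher in starved cells, where 26.2% of all genes were lower without overlap and 26.3% higher. The median deviation of the genes from their own means on the control arrays was 0.20, 0.14 and 0.18, and on the starved arrays it was -0.16, -0.20 and -0.18. No array of either group lay between the groups, so the shift did not rest on a single array.

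**Figure D1:**
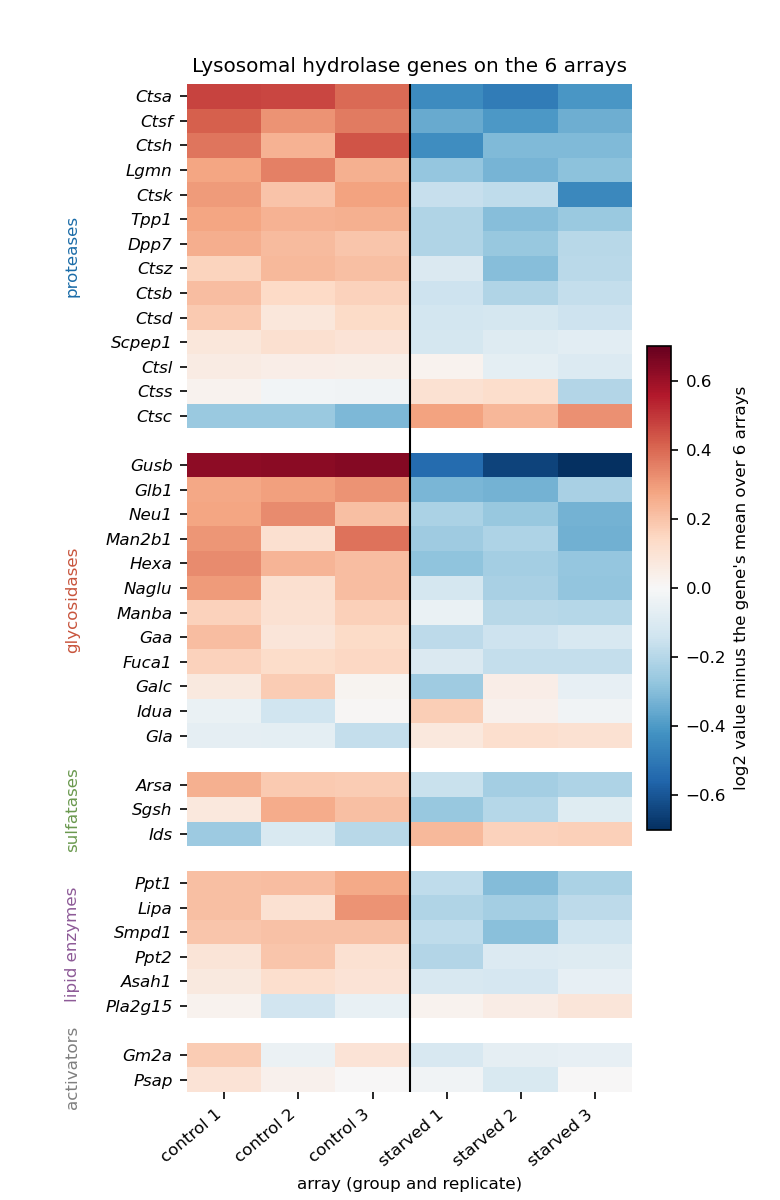
Each row is a gene and each column an array, with the colour giving the log2 value minus the gene's mean over the 6 arrays, and classes are separated by gaps. Most rows are red in the 3 control arrays and blue in the 3 starved arrays, while Ctsc, Ids and Gla show the opposite pattern and Ctsl, Ctss and Psap show little contrast.

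Set against all measured genes, the classes had similar medians except for the activators. The median change was -0.42 for proteases, -0.36 for glycosidases, -0.37 for sulfatases and -0.33 for lipid enzymes, with 11 of 14, 9 of 12, 2 of 3 and 5 of 6 genes called lower. For the activators it was -0.12, with neither gene called. The classes are small, and differences between them were not tested.

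**Figure D2:**
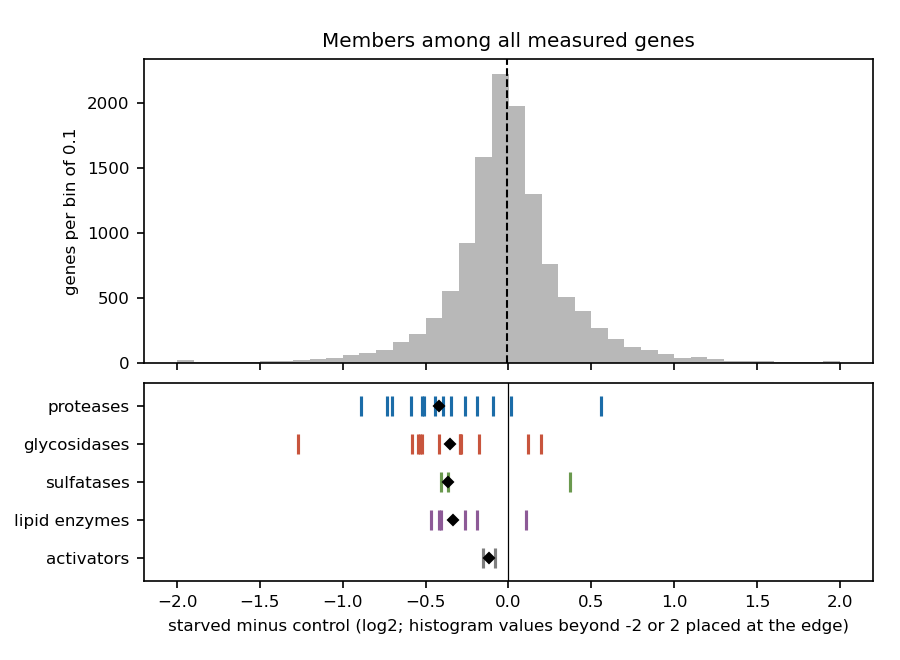
The upper panel counts all 12393 genes by their change (starved minus control, log2), with the median of all genes as a dashed line, and the lower panel marks each member by class, with a diamond at the class median. The histogram is centred near 0 (median -0.01), and in the classes of enzymes the medians lie between -0.42 and -0.33.

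Promoter sequences were read for E-box palindromes, which are known from the promoters of lysosomal genes, as given above. A larger share among these genes is therefore not a separate finding. RefSeq promoters of the mouse build GRCm38.p6, from 250 bases before to 50 after the start site, were at hand for 36 of the 40 genes. The E-box palindrome CACGTG, which reads the same on both strands, occurred in 12 of these 36 genes (33.3%), against 8.09% of the 27025 genes in the promoter table and 10.8% of the 9887 array genes found in it. Counted by promoter, 7.15% of all 32851 promoters held it. The longer TCACGTGA, which contains the first, occurred in 4 of the 36 (11.1%, against 1.12% of all genes in the table), and the full consensus of the CLEAR element in 0 of the 36 (0.370% of all). A match is a description of letters, not evidence of a bound factor, and its absence says only that these letters are not in the window.

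The following 30-base stretches, 5′ to 3′ on the strand of the gene with the palindrome in capitals, are shown because they come from the genes with a match that fell most, from Ctsd and from Gla, which rose.
Ctsa, chr2:164833749-164833778, plus strand: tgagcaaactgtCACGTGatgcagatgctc
Ctsa, chr2:164833766-164833795, plus strand: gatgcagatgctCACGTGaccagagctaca
Ctsf, chr19:4855074-4855103, plus strand: caccccgtggtcCACGTGcctcgcgtaaat
Lgmn, chr12:102439124-102439153, minus strand: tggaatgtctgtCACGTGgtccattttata
Glb1, chr9:114401018-114401047, plus strand: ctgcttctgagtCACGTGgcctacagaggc
Dpp7, chr2:25356388-25356417, minus strand: ccgccagactatCACGTGatgctgccccgc
Naglu, chr11:101070009-101070038, plus strand: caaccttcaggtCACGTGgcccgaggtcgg
Arsa, chr15:89477423-89477452, minus strand: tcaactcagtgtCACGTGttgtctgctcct
Ctsd, chr7:142387908-142387937, minus strand: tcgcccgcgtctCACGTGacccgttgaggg
Gla, chrX:134601182-134601211, minus strand: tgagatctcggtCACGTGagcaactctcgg

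In Ctsa, which has matches on both sides of its start site, the palindromes begin at positions -12 and 5, counted in bases from that site with negative numbers before it. They begin at -16 in Arsa, -48 in Glb1, -49 in Lgmn, -73 in Naglu and in Dpp7 and -79 in Ctsf. Gla has its matches farther out, at -227 and -194. The other genes with a match were Sgsh (-29), Gaa (-140) and Ctsl (-236), and Ctsd has a match at -98 and another at -245. Of the 15 matches in all, 10 began within 100 bases of the start site.

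Among the 12 genes with the palindrome 10 fell, Gla rose and Ctsl was not called, with a median change of -0.41. The 22 measured genes with a promoter but no palindrome included 14 that fell, 2 that rose and 6 that were not called, with a median of -0.29. This difference was not tested. Gusb, the gene with the largest fall, has no match in the window.

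**Figure D3:**
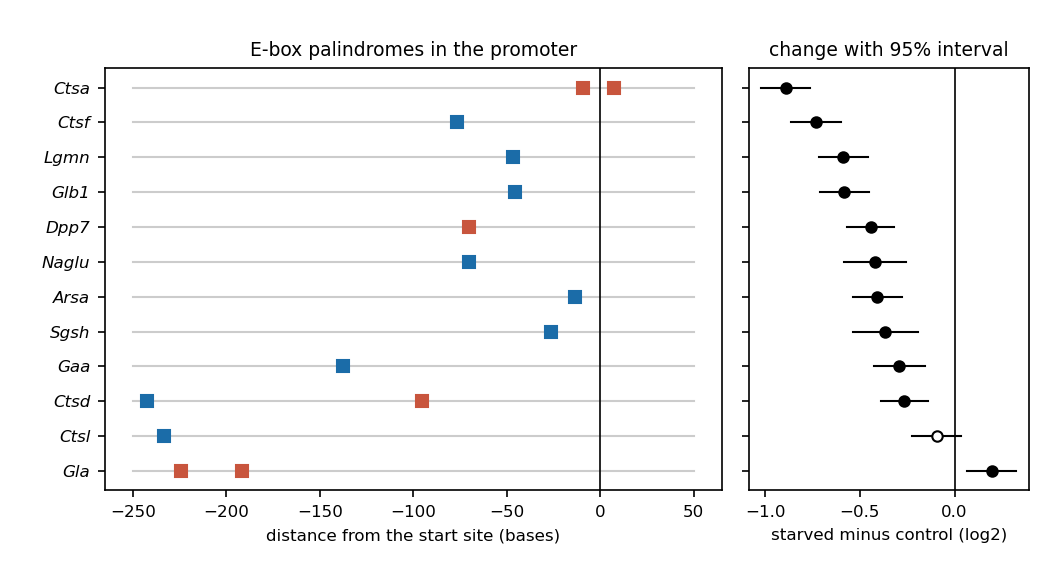
The left panel places each palindrome by its distance in bases from the start site, with orange squares for matches within TCACGTGA and blue squares for the others, and the right panel gives the gene's change (starved minus control, log2) with its 95% confidence interval. The filled points of 10 genes lie below 0, the open point of Ctsl (not called) has an interval that includes 0, and Gla lies above 0.

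Proteases formed the largest class. Cathepsin A, encoded by Ctsa, is a serine carboxypeptidase that also stabilises beta-galactosidase and neuraminidase in a shared complex. Ctsa was at 11.66, 11.66 and 11.59 in the control arrays and at 10.75, 10.70 and 10.78 in the starved arrays. All starved values lay well below all control values, and the change of -0.89 ± 0.06 (SE, n = 3 per group) was a 1.86-fold fall (limma adjusted p = 1.57e-05). The cysteine protease gene Ctsf went from 8.46, 8.36 and 8.41 to 7.69, 7.64 and 7.70, a change of -0.73 ± 0.06 (adjusted p = 4.13e-05). Ctsh, for an aminopeptidase of the same papain-like family, went from 8.84, 8.70 and 8.90 to 8.03, 8.15 and 8.15 (-0.71 ± 0.07, adjusted p = 0.000162). Its replicates were less even than those of Ctsa or Ctsf, but the groups were apart by more than their spread.

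Legumain, encoded by Lgmn, cuts after asparagine and helps process the cathepsins themselves. Lgmn was at 10.38, 10.45 and 10.35 in control and 9.83, 9.78 and 9.81 in starved cells (-0.59 ± 0.06, adjusted p = 0.000112). Smaller falls were measured for the collagen-degrading Ctsk (-0.52), tripeptidyl peptidase Tpp1 (-0.51), dipeptidyl peptidase Dpp7 (-0.44), the carboxypeptidase Ctsz (-0.39), Ctsb (-0.35), the aspartic protease Ctsd (-0.27) and the carboxypeptidase Scpep1 (-0.19). Each of these 7 passed the test, with groups that did not overlap. Ctsk had means of 5.75 in control and 5.23 in starved cells, near the dim limit of 5. The call of Scpep1 was lost without control replicate 2 (adjusted p = 0.0620), starved replicate 1 (0.0601) or starved replicate 2 (0.0553), and its p ranged from 0.000452 to 0.0620 over the alternatives tried. That of Dpp7 was lost where probe sets whose probes may hit more than 1 transcript were left out, since only a dim probe set then remained (-0.10, adjusted p = 0.339, range from 3.74e-07).

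Ctsl, which encodes the broad cysteine protease cathepsin L, is 1 of 2 proteases that were not called. It was at 13.23, 13.22 and 13.22 in control and 13.20, 13.11 and 13.08 in starved cells. The starved values were all slightly lower, and the difference of -0.09 (95% confidence interval -0.22 to 0.04, adjusted p = 0.231) did not pass. Ctsl passed in 1 of the 16 alternatives that gave it a value (lowest adjusted p = 0.0248). Ctss, the cathepsin of antigen-presenting cells, was the other uncalled protease. Its values of 3.15 to 3.48 lay near the background of the arrays in both groups.

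Ctsc went the other way. It encodes dipeptidyl peptidase 1, which activates granule serine proteases in immune cells and is made in many other cells. Ctsc was at 8.09, 8.09 and 8.04 in control and 8.64, 8.59 and 8.67 in starved cells, a rise of 0.56 ± 0.05 (adjusted p = 0.000135). The lowest starved value was far above the highest control value, and the gene kept its call under all 17 alternatives tried.

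**Figure D4:**
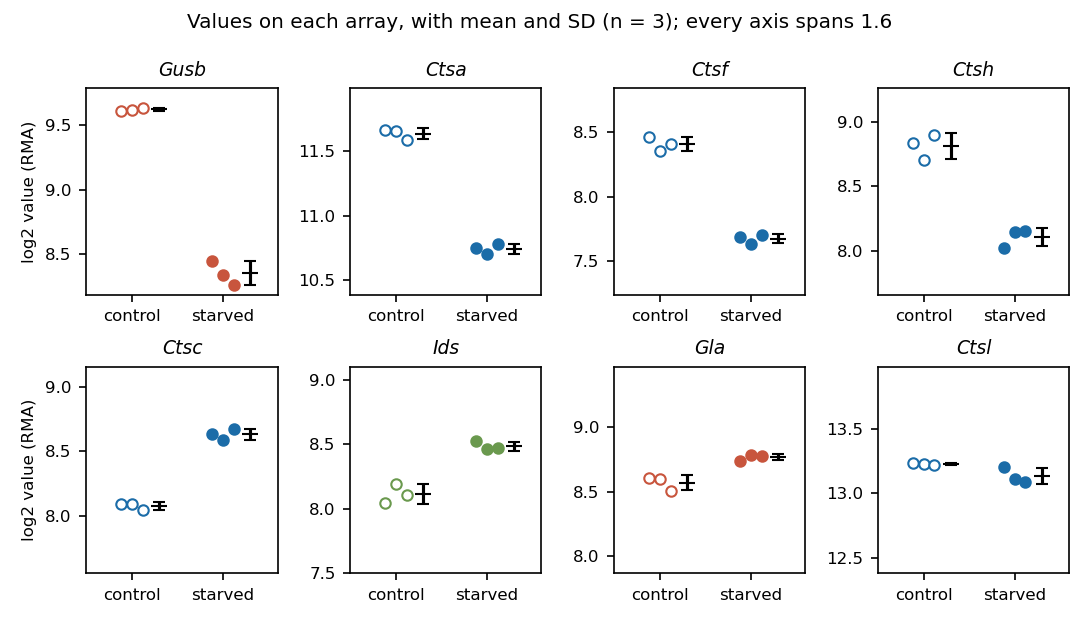
Each panel gives the log2 values of a gene on the 3 control arrays (open) and 3 starved arrays (filled), with the group mean and SD beside them, and every vertical axis spans 1.6 log2 units around its own centre. Gusb, Ctsa, Ctsf and Ctsh change by -0.71 to -1.27, Ctsc, Ids and Gla rise by 0.20 to 0.56, and Ctsl differs by -0.09.

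Glycosidases remove sugars one by one from glycoproteins, glycolipids and glycosaminoglycans. Gusb, whose product takes glucuronic acid off glycosaminoglycans, was at 9.61, 9.62 and 9.63 in control and 8.45, 8.34 and 8.27 in starved cells. The control arrays were almost identical and every starved array was lower by more than 1, a fall of 1.27 ± 0.06 or 2.41-fold (adjusted p = 5.98e-06). The other probe set of Gusb fell by 0.86 ± 0.09 (adjusted p = 0.000195). Glb1 (beta-galactosidase) and Neu1 (neuraminidase, which removes sialic acid) are the partners of cathepsin A. Glb1 went from 8.50, 8.52 and 8.54 to 7.91, 7.90 and 8.001 (-0.58 ± 0.06, adjusted p = 0.000120). Neu1 went from 8.06, 8.11 and 7.99 to 7.56, 7.51 and 7.45 (-0.55 ± 0.06, adjusted p = 0.000240). The 3 genes of this complex each fell without overlap between groups. So did most members, with 29 of the 37 lower without overlap (26.2% of all genes), so this does not set the complex apart. The E-box stretches of Ctsa and Glb1 are printed above, while Neu1 has no match in the window.

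Man2b1, for the alpha-mannosidase of glycoprotein breakdown, was at 10.68, 10.49 and 10.76 in control and 10.13, 10.16 and 10.04 in starved cells (-0.53 ± 0.08, adjusted p = 0.00117). Its other, dimmer probe set did not fall (0.11 ± 0.14, adjusted p = 0.581), and the mean of both did not pass (-0.21, adjusted p = 0.158, range from 1.15e-06 to 0.592). The fall of Man2b1 therefore rests on 1 of 2 probe sets. Hexa, the alpha chain of the hexosaminidase that degrades the ganglioside GM2, was at 12.05, 11.96 and 11.94 in control and 11.44, 11.49 and 11.45 in starved cells (-0.52 ± 0.06, adjusted p = 0.000221). Naglu, which acts on heparan sulfate, fell by 0.42 ± 0.07. The beta-mannosidase gene Manba (-0.29), the glycogen-degrading Gaa (-0.29) and the fucosidase gene Fuca1 (-0.29) fell by like amounts.

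Galc, for the galactosylceramidase of myelin lipid turnover, was near the log2 level of 5 under which probe sets were taken as dim, and it did not pass (-0.18, interval -0.38 to 0.02, adjusted p = 0.150). Idua, whose product takes iduronic acid off heparan and dermatan sulfate, did not pass in its brighter probe set (0.12, interval -0.05 to 0.28, adjusted p = 0.252). The dimmer probe set of Idua was called higher (0.23 ± 0.07, adjusted p = 0.0264).

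Gla, for alpha-galactosidase A of globotriaosylceramide breakdown, was at 8.60, 8.60 and 8.50 in control and 8.74, 8.78 and 8.77 in starved cells. The groups did not overlap, and the rise was 0.20 ± 0.06 (adjusted p = 0.0246). The call was lost without control replicate 3 (adjusted p = 0.0662), starved replicate 2 (0.0753) or starved replicate 3 (0.0721), with a range of 0.00120 to 0.0753 over the alternatives tried. The other probe set of Gla went from 5.33, 5.49 and 5.21 to 5.94, 6.13 and 6.39. It rose by 0.81 ± 0.12 (adjusted p = 0.00113), so both probe sets agree on the direction but not on the size.

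Sulfatases take sulfate groups off glycans and sulfated lipids, and each needs an activating change of a cysteine made by the enzyme of Sumf1. Arsa, for the arylsulfatase that degrades sulfatide, was at 10.99, 10.92 and 10.92 in control and 10.58, 10.50 and 10.52 in starved cells (-0.41 ± 0.06, adjusted p = 0.000698). Sgsh, for the sulfamidase of heparan sulfate, fell by 0.37 ± 0.07 (adjusted p = 0.00537). Its other, dimmer probe set did not pass (-0.23 ± 0.09, adjusted p = 0.0917), and the groups overlapped there. Ids, whose product removes sulfate from iduronic acid in the same pathway, moved in the opposite direction. It was at 8.04, 8.19 and 8.10 in control and 8.52, 8.46 and 8.47 in starved cells (0.37 ± 0.06, adjusted p = 0.00179). Of its other 4 probe sets 2 were also called higher (0.36 and 0.65), and the remaining pair lay under 4 in both groups without passing. Sumf1 itself fell by 0.17 ± 0.05 (adjusted p = 0.0391).

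Heparan sulfate is degraded in sequence by several of these enzymes, and they did not move as a block. Read in the brightest probe set of each, Gusb, Naglu and Sgsh fell, Ids rose and Idua was not called. In their other probe sets Sgsh was not called and Idua was called higher, as given above.

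Lipid enzymes cleave the fatty acids and head groups of lipids and lipid-modified proteins. Ppt1, for the thioesterase that removes palmitate from proteins, was at 9.59, 9.60 and 9.64 in control and 9.20, 9.07 and 9.16 in starved cells (-0.47 ± 0.06, adjusted p = 0.000456). Lipa, for the acid lipase of cholesteryl esters and triglycerides, was at 9.61, 9.50 and 9.71 in control and 9.18, 9.16 and 9.21 in starved cells (-0.42 ± 0.07, adjusted p = 0.00159). The other probe sets of Lipa fell by 0.44 and fell by 0.85. The acid sphingomyelinase gene Smpd1 fell by 0.40 ± 0.06 and the thioesterase gene Ppt2 by 0.26 ± 0.06.

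The acid ceramidase gene Asah1 was at 12.01, 12.06 and 12.04 in control and 11.83, 11.83 and 11.89 in starved cells. Its groups did not overlap, and it fell by 0.19 ± 0.05 (adjusted p = 0.0228). This call was lost without control replicate 2 (adjusted p = 0.0699), starved replicate 1 (0.0630) or starved replicate 2 (0.0739), with a range of 0.000221 to 0.0739. Pla2g15, for the lysosomal phospholipase, did not pass in its brighter probe set (0.11, interval -0.03 to 0.25, adjusted p = 0.210) and was called higher in the other (0.22 ± 0.07, adjusted p = 0.0309). As a gene, Pla2g15 passed in 1 of 17 alternatives (lowest adjusted p = 0.0266).

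The activators present lipids to hydrolases. Psap encodes the precursor of the saposins, which serve several sphingolipid hydrolases, and Gm2a encodes the protein that presents ganglioside GM2 to hexosaminidase. Psap was at 12.69, 12.62 and 12.60 in control and 12.57, 12.49 and 12.60 in starved cells, and the groups overlapped (-0.08, interval -0.22 to 0.05, adjusted p = 0.304). Gm2a was at 10.14, 9.93 and 10.06 in control and 9.85, 9.91 and 9.91 in starved cells (-0.15 ± 0.07, adjusted p = 0.116). Gm2a passed when its probe sets were averaged (-0.16, adjusted p = 0.0436), with an intensity trend (0.0255) and without control replicate 2 (0.0434), over a range of 0.0255 to 0.309. Its partner Hexa fell, but a difference between the changes of the pair was not tested.

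**Figure D5:**
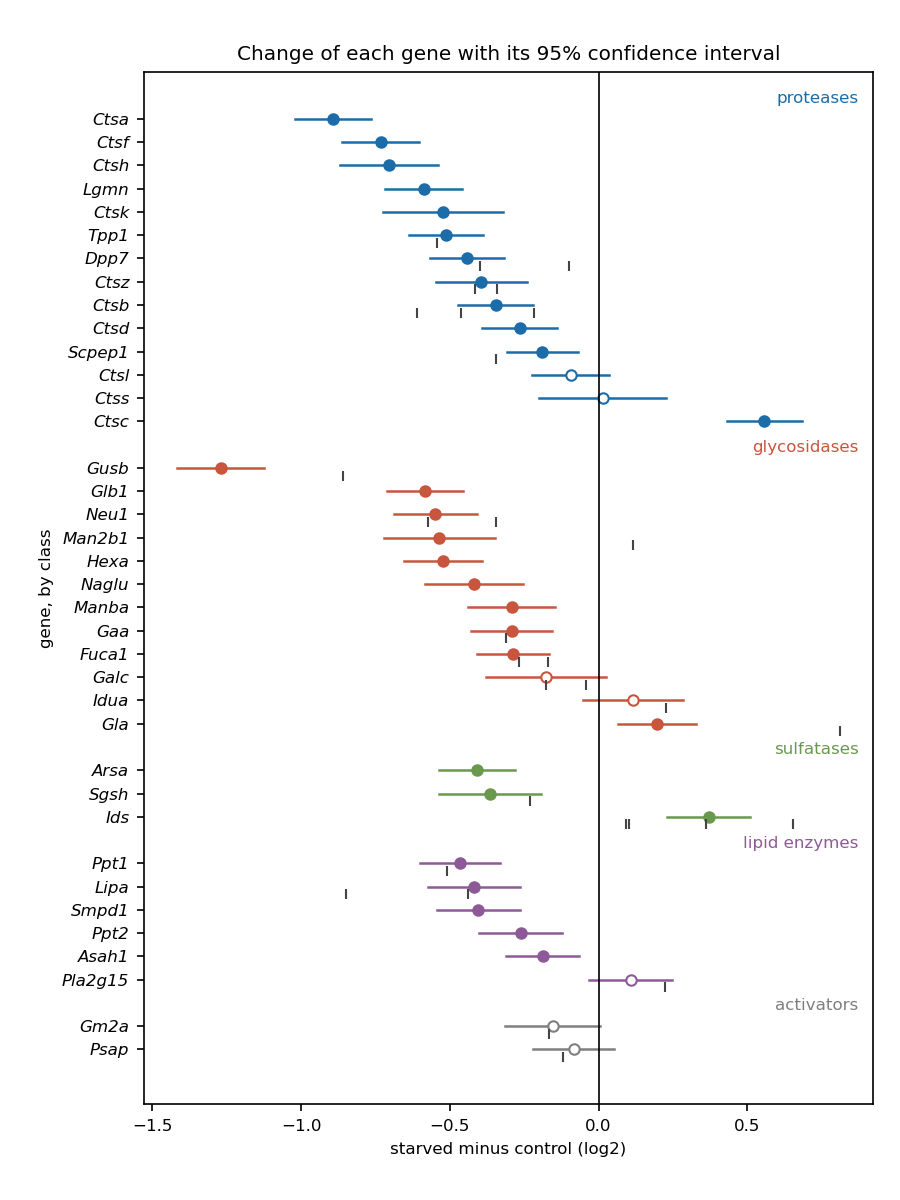
Each point is the change of a gene (starved minus control, log2) in its brightest probe set with the 95% confidence interval from limma, filled where the adjusted p was under 0.05, and short vertical marks give the gene's other probe sets. Filled points left of 0 number 27 and those right of 0 number 3, and the other probe sets lie on the same side as the point in every gene but Man2b1.

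Where a gene had several probe sets they mostly moved alike. Of the 37 genes 20 had more than 1, and 30 of their 31 other probe sets had the same sign as the brightest, with 0 genes called in opposite directions. Counted over all 68 probe sets, 44 were called lower and 8 higher, where 19.2% of all probe sets were lower and 20.3% higher (39.5% in either direction). Sizes differed more than signs. The 4 probe sets of Ctsb, which encodes a major cysteine protease of the lysosome, changed by -0.22 to -0.61.

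Other genes of the lysosome were read from the same fit. Of 15 other lysosomal enzymes measured, 5 fell and 1 rose, with a median change of -0.15. The folate-chain hydrolase gene Ggh fell by 0.51 ± 0.06, the deoxyribonuclease gene Dnase2a by 0.60 ± 0.10 and the acid phosphatase gene Acp5, which lay under 5 in both groups, by 0.63 ± 0.09. The chitobiase gene Ctbs rose by 0.76 ± 0.06 (adjusted p = 6.92e-05). The cholesterol carrier gene Npc2 (-0.04 ± 0.05) and Prcp (0.08 ± 0.06) did not pass. None of the 13 genes of this list found in the promoter table held CACGTG in the window.

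Among 11 genes that deliver and mature the hydrolases 6 fell and 2 rose, and their median was -0.20. The shares were 54.5% and 18.2%, against 20.1% and 20.8% of all genes. The gene of the cation-dependent mannose 6-phosphate receptor, M6pr, was at 10.72, 10.67 and 10.70 in control and 10.30, 10.23 and 10.21 in starved cells (-0.45 ± 0.05, adjusted p = 0.000386). Igf2r, which encodes the larger receptor for the same tag, did not pass (-0.17 ± 0.06, adjusted p = 0.0682) but did so without control replicate 2 (0.0477) and in 4 other alternatives (range 0.00757 to 0.171). Scarb2, for the receptor that carries beta-glucocerebrosidase to the lysosome, did not pass (-0.07 ± 0.06, adjusted p = 0.430) but did when its probe sets were averaged (-0.26, adjusted p = 0.00345, range up to 0.830). The sorting adaptor gene Gga2 fell by 0.39 ± 0.06 while its relative Gga1 rose by 0.36 ± 0.07. The retromer gene Vps29 fell by 0.36 ± 0.07, a call lost when its probe sets were averaged (-0.11, adjusted p = 0.213). Of the other retromer genes read, Vps26a fell by 0.28 ± 0.06 (adjusted p = 0.00666) and Vps35 rose by 0.23 ± 0.05 (adjusted p = 0.00972). Gnptab, for the enzyme that makes the tag, fell by 0.39 ± 0.10 (adjusted p = 0.0183). That call was lost without control replicate 2 (0.0531) or starved replicate 2 (0.0572), and in the probe set that matches a single transcript the change was -0.08. In this list 6 of 12 genes with a promoter held CACGTG.

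Among 23 genes of lysosomal membrane proteins and proton pump subunits 12 fell and 1 rose, and their median was -0.27. The shares were 52.2% and 4.35%, against 20.1% and 20.8% of all genes. The pump subunit genes Atp6v0b (-0.68 ± 0.06), Atp6v1h (-0.48 ± 0.06), Atp6v0e (-0.42 ± 0.05) and Atp6v1a (-0.41 ± 0.06) changed by most. The membrane protein genes Laptm4a (-0.03 ± 0.05) and Lamp1 (-0.12 ± 0.06) did not pass, though Lamp1 did with an intensity trend (adjusted p = 0.0108). CACGTG occurred in 8 of 21 genes of this list. The medians of the hydrolases (-0.37), of the membrane list (-0.27) and of the delivery list (-0.20) were not tested against each other.

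Of 5 genes listed as cathepsin inhibitors, Cst6 (cystatin E/M) fell by 0.56 ± 0.10 and the serpin gene Serpinb6a rose by 0.20 ± 0.06 (adjusted p = 0.0283). That is 20.0% lower and 20.0% higher, near the 20.1% and 20.8% of all genes. Whether each inhibitor acts on the cathepsins of this report was not examined. Serpinb6a no longer passed when any of control replicates 1, 2 and 3 or starved replicates 1 and 3 was left out (adjusted p of 0.0541 to 0.0861). Cystatin C, encoded by Cst3, differed by 0.01 ± 0.06, and cystatin B, encoded by Cstb, by -0.10 ± 0.06, neither passing. Cstb did pass in 1 of 17 alternatives (lowest adjusted p = 0.0294). Of the MiT/TFE factors Tfeb, Mitf and Tfec were read, none of them called, and Tfe3 was not analysed here. Tfec lay near background in both groups (3.30 and 3.37), so a change in it could not be measured well. Tfeb was at 6.91, 6.92 and 6.82 in control and 6.94, 6.86 and 6.95 in starved cells (0.04, interval -0.10 to 0.17, adjusted p = 0.669), and Mitf differed by 0.04 (interval -0.15 to 0.23, adjusted p = 0.745).

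For the series as a whole, arrays of the same group correlated at 0.998 and arrays of different groups at 0.986 to 0.988 over all probe sets. Of 15 fibroblast markers, Thy1 lay under 5 in both groups, and 5 were called higher and 5 lower (33.3% each, against 20.8% and 20.1% of all genes). Lum (to 24.2% of control) and Fap (to 20.8% of control, with a log2 mean of 4.33 in starved cells) fell by more than any hydrolase gene, Pdgfrb changed by -0.81 on the log2 scale, and the largest rise was that of Col1a1 (0.57). This list had summed log2 levels of 166.3 to 166.8 in control and 163.0 to 163.3 in starved arrays. Its median change was 0.13, with 6 of the 15 changes negative, so the lower sum does not stand for most of its genes. Of 13 macrophage and leukocyte markers 8 lay under 5 in both groups, among them Ptprc (3.07 in control) and Adgre1 (3.37). The others had control means of 8.34 (Cd14), 6.25 (Cd68), 6.18 (Csf1r), 6.07 (Lyz2) and 5.27 (Fcer1g). Summed levels of these markers were 60.9 to 63.4 in control and 61.7 to 62.4 in starved arrays. In this list Cd68, a lysosomal membrane protein, rose by 0.43 ± 0.06 and Lyz2 by 0.24, while Cd14 fell by 0.32 and Fcer1g fell by 0.28. Epithelial and endothelial markers lay under 5 in both groups in 6 of 8 and 6 of 6 genes, with summed levels of 33.5 to 34.9 and 22.4 to 23.1 in control and 35.1 to 35.5 and 22.1 to 23.8 in starved arrays. The 3 prime minus 5 prime difference of the Gapdh control probe sets was -0.05 ± 0.05 (SD, n = 3) in control and -0.13 ± 0.02 in starved arrays, and that of Actb was 0.05 ± 0.02 in both groups. The part of these shifts in the hydrolase changes was not tested.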

How the data were processed

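RNA of 3 control and 3 starved samples was measured on Affymetrix mouse arrays. The deposited log2 values come from RMA as run by the authors with affy (per the submitters' processing notes), whose version the sources used here do not give. RMA corrects background, quantile normalizes arrays and summarises probes, so a shift of most transcripts one way would not be visible, and array medians lay at 6.74 to 6.78. The number of arrays limits the precision.

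After 64 control probe sets were set aside, 22626 were tested, of which 20380 named 1 gene, 691 several and 1555 none. A gene was represented by its probe set with the highest mean. The test was two-sided, by lmFit and eBayes of limma 3.58.1 under R 4.3.3 without covariates, with Benjamini-Hochberg adjustment over all probe sets at 0.05. The fit was tested on simulated data. A level of 5 (log2) served as the dim limit. Python 3.11.15 with matplotlib 3.10.9 drew the figures. The members and lists were chosen with earlier results of these data known.

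Every measured member is named. Values on each array are given for the largest changes in each class, all members that rose and the brightest probe set of each class. Of the other lists, the rule took up to 4 called genes with the largest change and at most 2 uncalled ones, by level, and always Tfeb and Mitf. Naming of Gga1, Sumf1, Vps26a, Vps35 and marker genes went beyond it, after their values were seen. The alternatives were a filter on dim probe sets, renormalization, median centring, an intensity trend, array weights, no moderation, dropping probe sets whose probes may hit more than 1 transcript, averaging a gene's probe sets, adjustment over genes, a threshold of 0.01, a replicate block and leaving out each array. Scan dates were not used here.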

Additional observations from a re-analysis of the deposited data

How the results depend on the processing

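Of the 30 called members 25 kept their call and direction in every one of the 17 alternatives that gave them a value (Ctsd, Ctsz, Gaa, Hexa and Smpd1 had no probe set left in 1 of them), and Scpep1, Asah1, Gla, Dpp7 and Man2b1 did not, as given above. The median change of the members (-0.37) became -0.32 without probe sets whose probes may hit more than 1 transcript, where 30 members were left, and -0.30 when a gene's probe sets were averaged, of which the cause was not tested. Leaving out 1 array gave 25 to 27 members lower and 2 to 3 higher, with medians of -0.39 to -0.34 and 4381 to 4755 for all genes called. Control and starved arrays with the same replicate number did not deviate together (correlations of -0.09, 0.01 and -0.01 for numbers 1, 2 and 3), so the numbers were not used as pairs. With the number as a replicate block 25 members were lower and 2 higher, with 4624 for all genes called against 5059, and the calls of Scpep1 (adjusted p = 0.0534), Gla (0.0579), Asah1 (0.0578) and Serpinb6a (0.0506) were lost.

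Changes of sign were limited to Man2b1 (0.11 without those probe sets) and to genes that were not called. Ctss went to -0.0053 with median centring, -0.0038 with array weights and -0.036 and -0.044 without starved replicates 1 and 2 (leaving out 1 array gave -0.044 to 0.121). Cst3 went to -0.0083 with median centring, -0.0076 without control replicate 1 and -0.013 without starved replicate 1 (leaving out 1 array gave -0.013 to 0.034), Laptm4a to 0.011 with renormalization and Mitf to -0.024 without control replicate 2 (leaving out 1 array gave -0.024 to 0.0972). Gla lost its call with renormalization (adjusted p = 0.0515), and at a threshold of 0.01 the members lower and higher were 25 and 2. For values near the background, such as those of Ctss and of the dimmer probe sets of Galc and Ids, changes could not be measured well.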

Other observations

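Gla and Ids, 2 of the 3 members that rose, were the only measured members placed on chromosome X by the promoter table, a feature singled out after their values were seen. Over the 346 measured genes that the table places on X, 24.3% were called higher and 19.9% lower, with a median change of 0.02. On the other chromosomes 21.4% of 9439 genes were called higher and 20.0% lower, with a median of -0.01.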
